A study of Mus musculus with 167 samples.

Results

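The livers described here came from male C57BL/6 mice that carried the human nuclear receptors CAR and PXR in place of the mouse ones. On day 28 of a drinking-water study, 5 of these humanized mice (animals 6016 to 6020) had received 0.05% (wt/vol) phenobarbital and 4 (animals 5016 to 5019) plain water. Both arms were chosen by their labels for genotype, time and treatment, and they are 9 of the 167 arrays of the series. The other groups used for comparison were wild-type and CAR/PXR knockout mice of the same strain on day 28 (5 treated and 5 control animals each), and humanized mice on days 1, 7, 14, 91 and 119. The labels give an age of 9 to 11 weeks for all mice, while the treatment text also mentions a start at a younger age. The arrays measured RNA of whole liver, with 1 Affymetrix mouse GeneChip array per animal. Of 18193 genes with an annotated probe set, 12622 were bright enough to be tested. Values are log2 levels, so that a difference of 1 is a doubling, and a gene is called changed at an adjusted p under 0.05 (limma, Benjamini-Hochberg over the genes tested).

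CAR (constitutive androstane receptor, gene Nr1i3) and PXR (pregnane X receptor, gene Nr1i2) are ligand-responsive transcription factors of the hepatocyte. They pair with the retinoid X receptor and switch on the enzymes and transporters that oxidise, conjugate and export foreign compounds and bile acids. Phenobarbital, a barbiturate sedative, is the classical activator of CAR, and in rodents long treatment enlarges the liver and promotes liver tumours. The comparison asks how a liver with the human receptors responds after 4 weeks of the drug.

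The array probes for the mouse receptors were low in every humanized liver and near the levels of the knockout. Nr1i3 lay between 4.89 and 5.18 in the treated animals and between 4.87 and 5.29 in the controls, against 7.99 to 8.61 in treated and 8.19 to 8.64 in control wild-type mice. Nr1i2 lay between 3.60 and 3.82 in treated and between 3.62 and 3.98 in control humanized animals. In the knockout Nr1i3 lay at 4.74 to 5.15 in the treated and 4.69 to 5.07 in the control mice, and Nr1i2 at 3.51 to 3.80 and 3.41 to 3.73, so that single humanized livers lay above every knockout liver. The human transcripts were not analysed here. Hepatocyte markers were high in all livers: albumin (Alb) lay between 14.80 and 14.88 in the treated and between 14.85 and 14.89 in the control animals.

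Both arms held an array that stands apart. Control 5017 carried transcripts of the epidermis: the cornified envelope protein loricrin (Lor) was at 10.46 there, against 6.02 to 6.48 in the other 8 livers, and Lgals7 at 9.58, against 4.72 to 4.88. The mean of 10 epidermal genes, a list chosen after seeing the data, was 8.38 in this animal, the highest of 166 samples, against 4.58 to 4.69 in the treated and 4.60 to 4.69 in the other control animals. Treated animal 6017 carried transcripts of the exocrine pancreas, with Cpb1 at 7.62 against 3.50 to 4.17 in the other 8 livers, and a mean of 6.96 over 11 acinar genes, against 5.26 to 5.35 in the other treated and 5.22 to 5.32 in the control animals. This animal ranked 24 among 166 samples for these genes, and 30 samples lay more than 1 above the series median. Counts of gene lists that change without 6017 and 5017 are given both ways below. The part of either tissue in the falls and rises was not tested beyond that.

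Phenobarbital changed 972 of 12622 genes in humanized livers on day 28, which is 7.7% of those tested. Of these, 527 (4.18%) were higher and 445 (3.53%) lower in treated mice. A change of at least 1.5-fold was seen upward in 119 genes (0.943%) and downward in 65 (0.515%). Every treated animal lay above every control in 601 genes (4.76%) and below every control in 408 (3.23%). Without animals 6017 and 5017 the called genes numbered 449, of which 327 were higher and 122 lower. Of the original rises 313 were called again, and of the original falls 119. A fit on the 9 arrays alone called 290 genes higher and 132 lower. The rises were thus called again more often than the falls, and the falls are given below with this in view.

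Many of the 15 largest rises, which were picked among genes whose groups do not overlap, were in genes of drug metabolism. Cyp2c65, a cytochrome P450 of the Cyp2c cluster, was at 9.18, 8.97, 8.51, 8.87 and 8.86 in the treated livers, against 3.44, 3.31, 3.69 and 3.60 in the controls. This is a rise of 5.37 ± 0.17 (SE), or 41.4-fold (adjusted p = 4.88e-60). The control levels lie near the lowest value in the files, 2.11, where RMA understates differences.

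Cyp2b10, the mouse P450 by which CAR activation is usually recognised, was at 12.99, 12.89, 12.73, 12.76 and 12.79 in treated livers, against 7.61, 7.18, 7.89 and 8.01 in control livers. No treated animal was near a control, and the rise was 5.16 ± 0.20, or 35.8-fold (adjusted p = 1.11e-49). Other probe sets of the gene gave 4.99 and 5.30. Its neighbour Cyp2b9, a P450 that is female-biased in mouse liver, was at 7.75, 7.27, 6.89, 6.53 and 5.71, against 3.88, 3.83, 3.80 and 4.17, a rise of 2.91 ± 0.39. Gstm3, a mu-class glutathione S-transferase, was at 13.51, 13.58, 13.52, 13.67 and 13.31 in treated livers, against 10.59, 10.24, 10.37 and 11.14 in controls, a rise of 2.93 ± 0.19.

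CAR and PXR are known to bind paired half-sites, among them direct repeats with 4 bases between the half-sites (DR4). The half-sites searched, on both strands, were AGGTCA and its variant AGTTCA, as well as GGGTCA and its variant GGTTCA. The 250 bases before the start of these induced genes are shown from RefSeq (GRCm38.p6), because the genes moved together and a reader can see which carry single half-sites close to the start; half-sites on either strand are in capitals.
Cyp2b10 (chr7:25897408-25897657, plus strand): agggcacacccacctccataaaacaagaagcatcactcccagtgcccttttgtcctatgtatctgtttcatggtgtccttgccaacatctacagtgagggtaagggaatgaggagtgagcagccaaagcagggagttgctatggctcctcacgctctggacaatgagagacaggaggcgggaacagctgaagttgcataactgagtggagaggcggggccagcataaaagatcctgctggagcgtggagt
Cyp2b9 (chr7:26173159-26173408, plus strand): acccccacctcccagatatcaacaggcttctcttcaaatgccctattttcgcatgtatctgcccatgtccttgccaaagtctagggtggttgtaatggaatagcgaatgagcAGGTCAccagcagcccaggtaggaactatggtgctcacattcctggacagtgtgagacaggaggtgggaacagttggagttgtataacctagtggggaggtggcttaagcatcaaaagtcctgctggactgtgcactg
Gstm3 (chr3:107969175-107969424, minus strand): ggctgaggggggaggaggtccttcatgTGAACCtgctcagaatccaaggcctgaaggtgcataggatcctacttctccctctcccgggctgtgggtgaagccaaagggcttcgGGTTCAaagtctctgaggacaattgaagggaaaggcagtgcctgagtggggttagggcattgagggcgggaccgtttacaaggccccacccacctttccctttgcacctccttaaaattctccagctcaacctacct
The related Cyp2b10 and Cyp2b9 sequences differed in this respect: Cyp2b9 held 1 half-site, Cyp2b10 0 and Gstm3 2. No DR4 was found in any of them. Of 124 such windows of 93 genes that rose by at least 1.5-fold, 41.1% held a half-site and 0 held a DR4, beside 34.5% and 0.015% of the 12961 windows of all genes tested and 38.6% and 0.067% of all 32851 windows in the table. Of 53 windows of 48 genes that fell as much, 39.6% held a half-site and 0 a DR4. The absence of these letters says nothing of elements further away.

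**Figure D1:**
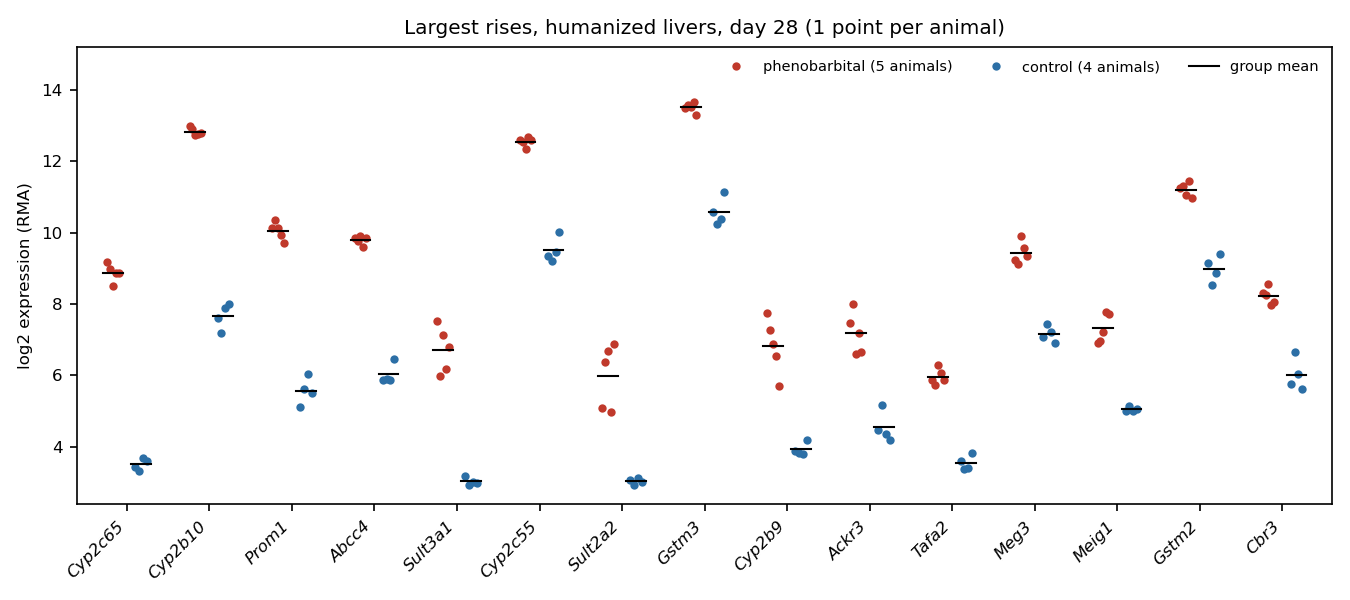
The log2 level of the 15 genes with the largest rises is plotted for each humanized liver on day 28, with the 5 phenobarbital animals left of the 4 control animals and a bar at each group mean. The groups are apart for every gene by the rule that picked them, and treated animals vary most for Sult3a1, Sult2a2 and Cyp2b9.

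Across the P450 families 1 to 3, 15 of 30 tested members rose and 2 fell, with a median difference of 0.18 beside -0.0019 over all genes tested. Without 6017 and 5017, 13 rose and 1 fell. Cyp2c55 rose by 3.06 ± 0.17: treated livers had 12.59, 12.54, 12.36, 12.70 and 12.60, and control livers 9.33, 9.20, 9.46 and 10.01. Within the Cyp2c family, whose members lie on chromosome 19, 6 of 11 tested genes rose and 1, Cyp2c68, fell (-0.47 ± 0.15). Cyp2c54 rose by 1.5 ± 0.13, Cyp2c37 by 1.28 ± 0.15 and Cyp2c50 by 0.84 ± 0.07. Family members are alike in sequence, and probes may pick up more than 1 of them. Cyp2c29, already near the top of the scale, was at 13.86 ± 0.10 in treated and 13.58 ± 0.11 in control livers (SD, n = 5 and 4), a rise of 0.28 whose groups overlapped.

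The Cyp3a genes, the usual readout of PXR, moved little. All 4 tested members rose, by 0.15 to 0.50. The call of Cyp3a44 (0.49) was lost without 6017 (adjusted p = 0.053) and without both 6017 and 5017 (adjusted p = 0.14). Cyp3a11, the main mouse Cyp3a enzyme, was at 14.58, 14.61, 14.55, 14.63 and 14.53 in treated livers, against 14.46, 14.45, 14.38 and 14.42 in controls. That rise of 0.15 ± 0.04 lies close to the highest value in the files, 15.07. Cyp1a2, which metabolises caffeine, rose by 0.63 ± 0.14, and the male-biased Cyp2u1 fell by 0.57 (adjusted p = 0.00047). Of 7 tested Cyp2d and 3 tested Cyp4a genes 0 were called by limma, with an unadjusted p under 0.05 for 1 and 0. Cyp4a14, a fatty acid hydroxylase under PPAR alpha, spread from 9.04 to 10.41 in treated and from 9.19 to 10.91 in control livers (adjusted p = 0.83).

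Other phase I enzymes rose in 11 of 26 tested genes and fell in 2 (median 0.14); without 6017 and 5017, 8 rose and 0 fell. The carbonyl reductase Cbr3 was at 8.31, 8.26, 8.55, 7.97 and 8.06 in treated livers, against 5.75, 6.66, 6.03 and 5.63 in controls, a rise of 2.21 ± 0.20. Its neighbour Cbr1 rose by 0.97 ± 0.12. The carboxylesterase Ces2a, which cleaves ester drugs, rose by 1.03 ± 0.08, and Ces1g by 0.55 ± 0.11. The microsomal epoxide hydrolase Ephx1 rose by 0.50 ± 0.10.

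Conjugating enzymes rose in 20 of 37 tested genes and fell in 0, with a median difference of 0.36. In 17 the rise was also called without 6017 and 5017. All but 1 of 7 tested mu-class glutathione transferases rose, led by Gstm3 and by Gstm2, which was at 11.24, 11.31, 11.07, 11.46 and 10.97 in treated and at 9.15, 8.52, 8.86 and 9.39 in control livers. Gstt3 rose by 1.49 ± 0.17, and Gsta2 by 0.91 ± 0.15. Of the glucuronosyltransferases, Ugt2b34 and Ugt2b35 each rose by 0.55, and Ugdh, which makes their sugar donor, by 0.69 ± 0.08.

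The rises of Sult3a1 and Sult2a2 varied widely among treated animals. Sult3a1, which sulfates amines, was at 7.52, 5.97, 7.12, 6.17 and 6.78 in treated livers, against 3.18, 2.92, 2.99 and 2.99 in control livers. Its rise of 3.69 ± 0.32 (adjusted p = 9.55e-19) came with an SD of 0.65 among treated and 0.11 among control animals. The control levels of both genes lie near the lowest value in the files, so that the differences may be understated. Sult2a2, a hydroxysteroid and bile acid sulfotransferase, was at 5.08, 6.38, 6.67, 4.95 and 6.88, against 3.07, 2.92, 3.10 and 3.0. Animals 6016 and 6019 had the lowest Sult2a2 of the treated group, and 6017 and 6019 the lowest Sult3a1. Sult1c2 and Sult1d1 rose less, by 0.67 and 0.64.

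Among 17 tested transporters 4 rose and 1 fell, also without 6017 and 5017. The efflux pump Abcc4 (MRP4), of the basolateral membrane, was at 9.85, 9.76, 9.89, 9.60 and 9.86 in treated livers, against 5.88, 5.89, 5.88 and 6.46 in controls, a rise of 3.77 ± 0.18 or 13.6-fold. Its relative Abcc3 rose by 0.57 ± 0.11, and P-glycoprotein Abcb1a by 0.89 ± 0.17. The uptake carriers moved in opposite directions: Slco1a4 rose by 1.57 ± 0.21, and the male-biased Slco1a1 fell by 0.76 (adjusted p = 1.05e-05).

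Of 14 tested NRF2 targets, genes of the oxidative stress response, 6 rose and 0 fell, with a median of 0.18; without 6017 and 5017, 5 rose. Nqo1, a quinone reductase, rose by 0.81 ± 0.14, Osgin1 by 0.84 ± 0.21 and Srxn1 by 0.62 ± 0.10. In haem metabolism 2 of 13 tested genes rose, beside 4.18% of all genes tested: Blvrb (biliverdin reductase B, 0.57 ± 0.09) and Cyb5a (0.24 ± 0.03). Alas1, the rate-limiting enzyme of haem synthesis, spread from 9.57 to 11.59 in treated and from 10.54 to 11.36 in control livers (adjusted p = 0.71).

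**Figure D2:**
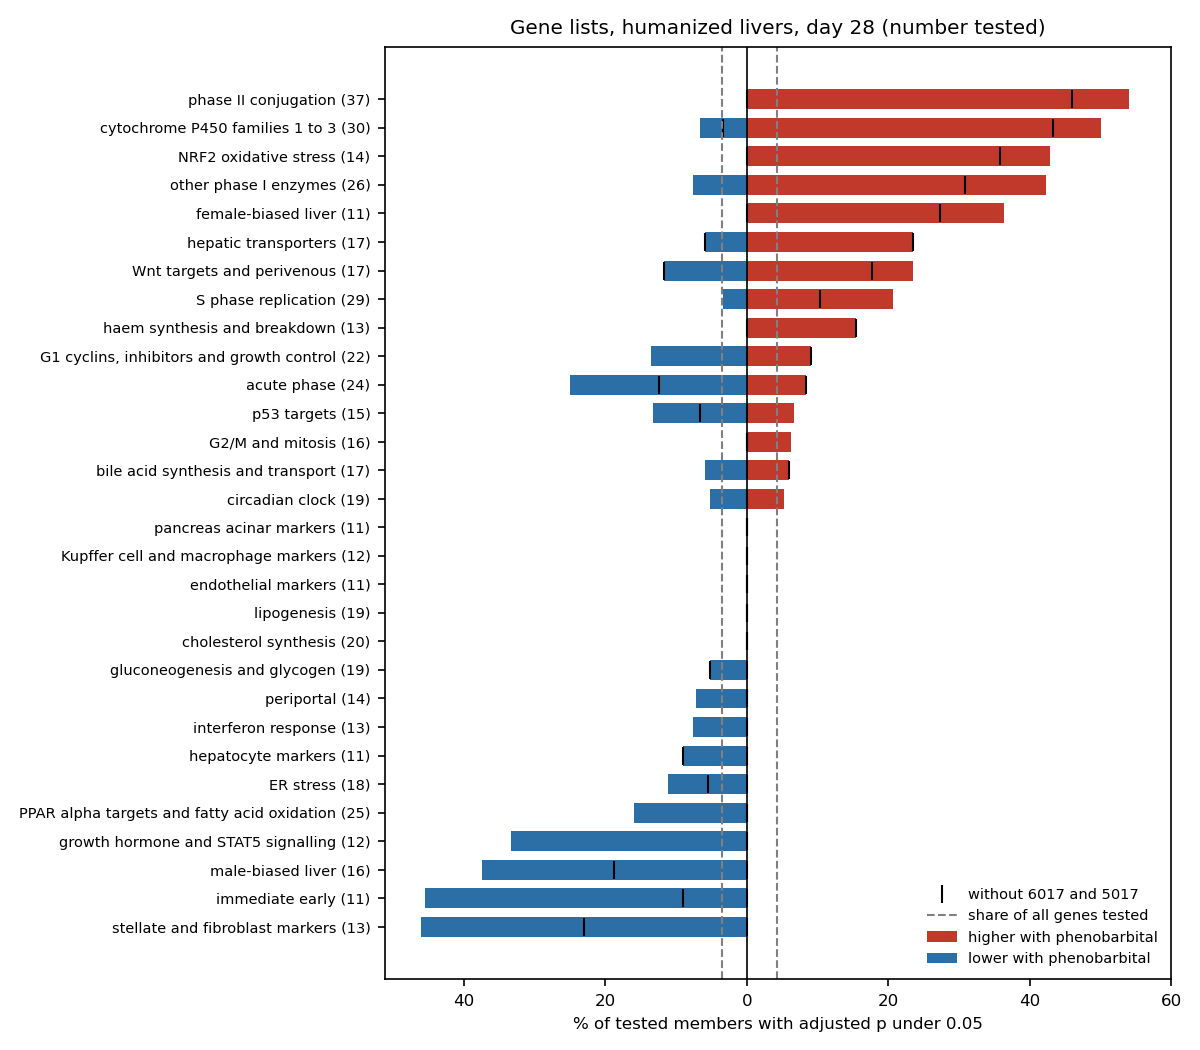
Bars show the share of each list's tested members, in percent, that was called higher (right, red) or lower (left, blue) with phenobarbital in humanized livers on day 28. Ticks give the share without treated animal 6017 and control animal 5017, and dashed lines the 4.18% and 3.53% of all genes tested. Lists with fewer than 11 tested members are not drawn. Of those drawn, phase II conjugation (20 of 37) and the P450 families (15 of 30) extend furthest to the right, and most ticks on the left lie nearer to 0 than the bar ends.

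Several of the largest rises lay outside drug metabolism. Prom1 (CD133), a membrane protein used as a marker of progenitor cells, was at 10.13, 10.37, 10.13, 9.94 and 9.72 in treated livers, against 5.11, 5.62, 6.04 and 5.51 in controls. Its rise was 4.49 ± 0.36, or 22.4-fold (adjusted p = 4.18e-21). Ackr3, a scavenging chemokine receptor, was at 7.47, 7.99, 6.61, 7.18 and 6.65, against 4.45, 5.18, 4.34 and 4.20. The other large rises were in Tafa2, which encodes a secreted protein known from brain (2.42 ± 0.33), Meig1, known from spermatogenesis (2.26 ± 0.21), and Nebl, which encodes the actin-binding nebulette (2.10 ± 0.22).

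Of the other progenitor and fetal liver genes, Afp (alpha-fetoprotein) was at 5.16 to 5.72 in treated and 4.58 to 5.06 in control livers. This rise of 0.65 ± 0.21 (adjusted p = 0.031) was lost without each of treated animals 6018 and 6019 and each of controls 5017, 5018 and 5019. The list's count was 2 of 8, Prom1 and Afp, with a median of -0.04, and without 6017 and 5017 it was 1, Prom1. Cholangiocyte markers, which would show bile duct cells, gave 0 of 4 by limma, also at an unadjusted p under 0.05: Epcam lay between 5.54 and 5.88 in treated and between 5.27 and 5.83 in control livers.

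Of the 3 tested non-coding RNAs of the imprinted Dlk1-Dio3 domain, Meg3 and Rian rose. Meg3, a maternally expressed long RNA, was at 9.22, 9.11, 9.89, 9.56 and 9.35 in treated livers, against 7.08, 7.44, 7.21 and 6.90 in controls. The rise was 2.27 ± 0.17, or 4.83-fold (adjusted p = 7.14e-24). Rian, its neighbour, was at 6.03, 5.42, 6.86, 6.18 and 4.91, against 4.08, 4.07, 3.60 and 4.06, a rise of 1.93 ± 0.24. The third tested RNA of the domain, Mirg, lay between 5.98 and 6.22 in treated and between 5.72 and 6.28 in control livers (adjusted p = 0.56). Probe sets of Meg3 disagreed in size: 2 of them gave 0.12 and 0.13, which were not called, and the others 0.35 to 2.22.

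In the S phase list, which holds genes of DNA replication, 6 of 29 tested genes rose and 1 fell, with a median of 0.17. Without 6017 and 5017 the rises were 3: Mcm2, Mcm4 and Mcm6. Mcm6, a subunit of the replicative helicase, was at 7.32, 7.28, 7.70, 7.73 and 6.84 in treated livers, against 6.45, 6.33, 5.96 and 6.29 in control livers, a rise of 1.12 ± 0.23 (adjusted p = 0.00034). Mcm4 rose by 0.61 ± 0.14 and Mcm2 by 0.53 ± 0.12, whereas Mcm5 (0.56 ± 0.22, adjusted p = 0.11) was not called. Mcm10, which loads the helicase's partners, fell by 0.73 (adjusted p = 0.018), but a second probe set gave -0.20 (adjusted p = 0.45). Treated animal 6020 had the lowest Mcm6 and Mcm4 of its group.

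In the G2/M list 1 of 16 tested genes rose, beside 4.18% of all genes tested: Ect2, an exchange factor of cytokinesis (0.88 ± 0.24, adjusted p = 0.0099). Without 6017 and 5017 the count was 0. The proliferation marker Mki67 was at 4.65 to 5.54 in treated and 4.64 to 5.49 in control livers, Top2a at 5.01 to 5.60 and 4.83 to 5.61, and Cdk1 at 6.35 to 7.03 and 6.19 to 6.87. None of these was called. Of 22 tested G1 and growth control genes 2 rose and 3 fell, beside 4.18% and 3.53% of all genes tested. Without 6017 and 5017 the counts were 2 and 0. Gadd45b, a stress-induced growth arrest gene and a known early CAR target, rose by 1.46 ± 0.16 (adjusted p = 5.84e-13), with treated livers at 6.70 to 7.65 and controls at 5.47 to 5.88. The CDK inhibitor Cdkn2c rose by 0.40 ± 0.10. Cyclin D1 (Ccnd1) was at 7.58 to 7.98 in treated and 7.75 to 8.09 in control livers and was not called (adjusted p = 0.72).

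Among the largest falls, Socs2 and Egr1 also varied among controls. Socs2, a feedback inhibitor of growth hormone signalling, was at 6.03, 5.87, 7.54, 7.88 and 6.62 in treated livers, against 9.77, 8.23, 8.50 and 10.07 in controls. It fell by 2.35 on the log2 scale (SE 0.70, adjusted p = 0.021), and the call was lost without any 1 of 6016, 6017, 5016 or 5019. Egr1, an immediate early factor, was at 5.82, 5.95, 5.92, 5.78 and 5.75, against 6.60, 7.82, 7.60 and 8.86, a fall that was lost without 5019. Csad, an enzyme of taurine synthesis, fell by 1.90 (SE 0.33, adjusted p = 1.10e-05): treated livers had 8.21, 7.79, 8.79, 8.20 and 9.68 and controls 10.30, 9.98, 10.81 and 10.63.

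Olig1, a transcription factor known from glial cells, fell by 1.31 (SE 0.25), and its treated animals lay at 5.26 to 6.19 against 6.92 to 7.24. The other falls among the 10 largest without overlap were in the matrix protein Ogn (-1.06), the retinol esterifying enzyme Lrat (-0.96), Adh6-ps1 (-0.93), the liver transcription factor Foxa3 (-0.84), the dehydrogenase-like Sdr9c7 (-0.82) and the male-biased steroid dehydrogenase Hsd3b5 (-0.81). Ogn was not called without 5017, and Lrat not without either of 6019 and 5019. With 6017 and 5017 both left out, Csad, Olig1, Adh6-ps1, Sdr9c7 and Hsd3b5 were still called, and Socs2, Egr1, Ogn, Lrat and Foxa3 were not.

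Myc, Socs3 and Gadd45g had overlapping groups. Myc was at 5.89, 5.80, 6.18, 6.78 and 5.72 in treated livers, against 8.78, 7.13, 5.86 and 8.67 in controls; Socs3 and Gadd45g, like Myc, were high in 5016, 5017 and 5019 and low in 5018. The call of Myc (-1.54 ± 0.51, adjusted p = 0.045) was lost without any 1 of 7 of the 9 animals. Dmkn, Lce1c and Lce1d, genes of the epidermis, were called lower, and each call was lost without 5017: Dmkn was at 3.79 to 4.32 in treated livers, 9.47 in 5017 and 4.01 to 4.41 in the other controls.

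**Figure D3:**
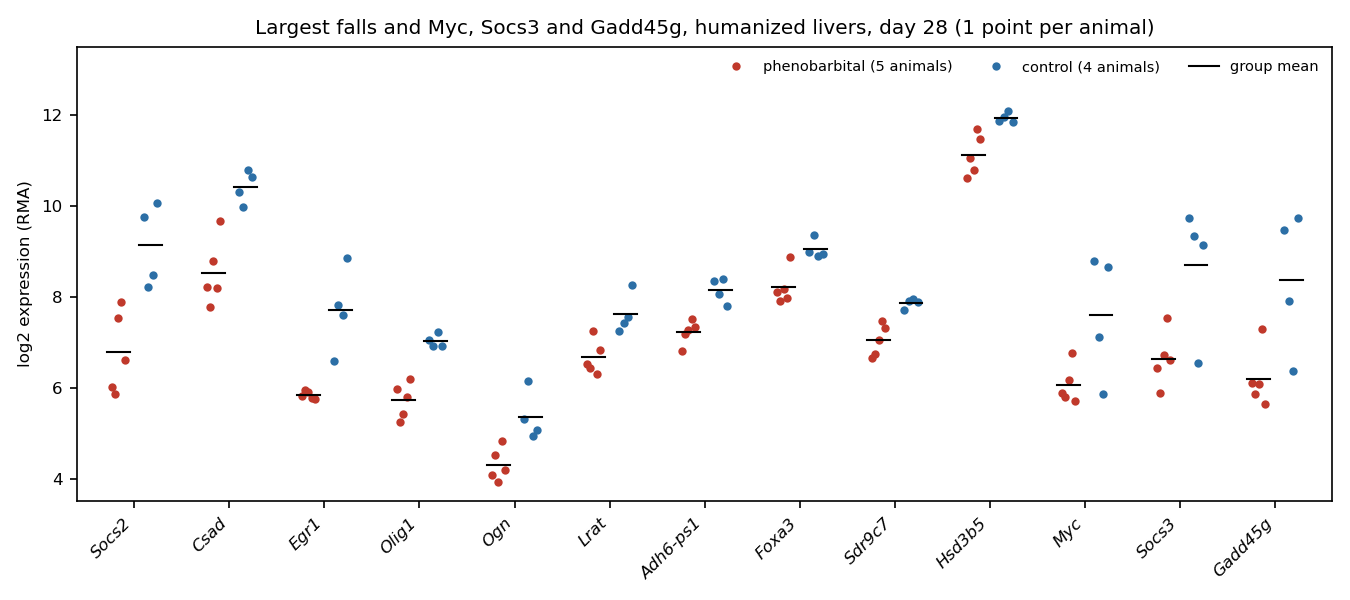
The log2 level of the 10 genes with the largest falls without overlap, and of Myc, Socs3 and Gadd45g, is plotted for each humanized liver on day 28, with the 5 phenobarbital animals left of the 4 control animals and a bar at each group mean. Controls spread widely for Socs2, Egr1, Myc, Socs3 and Gadd45g, and 1 control lies within the treated range for each of the last 3.

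Part of the sex-biased genes of the liver were called. Of 11 tested female-biased genes 4 rose (Sult3a1, Cyp2b9, Cyp2b13 and Cyp3a44) and 0 fell, with a median of 0.34. Of 16 tested male-biased genes 6 fell and 0 rose, with a median of -0.34. Without 6017 and 5017 the counts were 3 and 3. Several of these genes are P450s or transporters that the drug metabolism lists also hold. Of 12 growth hormone and STAT5 genes 4 fell, among them Igf1 (-0.23 ± 0.06) and the growth hormone receptor Ghr (-0.18 ± 0.05), but 0 were called without both animals. All 5 treated livers lay below all controls for Igf1 (11.97 to 12.14 against 12.16 to 12.33).

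Immediate early genes fell in 5 of 11 tested cases, with a median of -0.53, and 1 of them, Ier2, was called without 6017 and 5017. Their mean level was 6.32 to 6.64 in treated and 6.59 to 7.51 in control livers. Acute phase genes gave 2 rises and 6 falls of 24, and 2 rises and 3 falls without 6017 and 5017. Orm3 and Orm2, which encode orosomucoids, rose by 2.01 ± 0.18 and 1.97 ± 0.35, and the fibrinogen genes Fgb and Fgg fell by 0.15 and 0.11. Hamp, the iron hormone hepcidin, was at 9.26 to 12.38 in treated and 12.04 to 12.58 in control livers, and its fall was lost without 6016.

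Lipid and carbohydrate lists changed little. Of 20 tested cholesterol synthesis and 19 lipogenesis genes 0 were called by limma, with an unadjusted p under 0.05 for 2 and 1, and Fasn, fatty acid synthase, was at 10.42 to 10.88 in treated and 10.28 to 11.07 in control livers. Of 25 PPAR alpha and fatty acid oxidation genes 4 fell (Ppara, Plin2, Cpt1a and Acadvl, by 0.19 to 0.59), and 0 were called without 6017 and 5017. Bile acid genes gave 1 rise, Akr1d1 (0.56 ± 0.11), and 1 fall, Cyp7b1, of 17, beside 4.18% and 3.53% of all genes tested. The call of Cyp7b1 (adjusted p = 0.049) was lost without any 1 of 6 of the 9 animals, 6017 and 5017 among them. Cyp7a1, which starts bile acid synthesis from cholesterol, lay between 9.01 and 10.13 in treated and between 8.82 and 10.19 in control livers.

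Genes of the perivenous zone and of Wnt signalling gave 4 rises and 2 falls of 17, and 3 and 2 without 6017 and 5017. Over all genes tested, 4.18% rose and 3.53% fell. Lect2 rose by 0.68 ± 0.10, and the Wnt-inactivating enzyme Notum fell by 0.53 (SE 0.09). Axin2, a general Wnt target (0.30 ± 0.13, adjusted p = 0.13), and glutamine synthetase Glul (-0.07 ± 0.07, adjusted p = 0.59) were not called. Beside the same shares, Bbc3 rose and Perp and Btg2 fell among 15 tested p53 targets. Of these Perp alone was called without 6017 and 5017.

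Among cell type markers, those of stellate cells and fibroblasts fell in 6 of 13 tested genes, with a median of -0.30, and in 3 of 13 (Dcn, Hand2 and Reln) without 6017 and 5017. Their mean was 7.73 to 7.93 in treated and 7.95 to 8.29 in control livers, highest in 5017. In whole liver, fewer cells of a type and less RNA per cell cannot be told apart. Of 11 endothelial, 12 Kupffer cell and 6 T and NK cell markers 0 were called by limma, with an unadjusted p under 0.05 for 1, 0 and 0. Of 5 B and plasma cell markers only Ighm, the mu heavy chain, was called: it was at 11.33, 11.55, 11.56, 11.42 and 10.91 in treated and at 9.64, 8.81, 9.45 and 8.89 in control livers. A second Ighm probe set gave 2.29, and the remaining 3 gave -0.02 to 0.12.

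Setting these livers beside wild-type livers of the same day asks where the human and the mouse receptors differ. Phenobarbital changed 700 genes (5.55%) in wild-type mice on day 28. The difference between the effects in humanized and wild-type mice had an unadjusted p under 0.05 for 882 genes. It passed the test for 17 of 12622 genes (0.135%), 6 larger and 11 smaller in humanized mice. Larger and smaller refer here and below to signed effects, so that a fall counts as smaller than a rise. Quantile normalization again gave 22 such genes, 10 larger and 12 smaller, and leaving out 6017 and 5017 gave 14, 5 larger and 9 smaller.

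Sult2a2 stood at the top of those larger in humanized mice. It was induced there as given above, whereas treated wild-type livers had 2.91, 3.03, 3.08, 3.07 and 2.91 and control wild-type livers 2.99, 2.92, 2.81, 2.98 and 3.06. The difference of effects was 2.92 ± 0.31. Prom1 was at 9.72 to 10.37 in treated humanized livers, against 7.82, 6.84, 5.99, 8.63 and 6.54 in treated wild-type livers, so that those groups did not overlap. Its effect was larger by 2.76 ± 0.49 (adjusted p = 0.00023). Cbr3 (by 1.41 ± 0.28), Abcc4 (by 1.12 ± 0.25) and the sulfatase Sulf2 (by 0.75 ± 0.16) also had larger effects in humanized mice. Of its other probe sets 1 gave an effect of 0.92 and 1 of -0.02 ± 0.09 in humanized livers.

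The smaller effects in humanized mice included the main CAR targets. Cyp2b10 rose by 5.16 in humanized and by 6.68 in wild-type mice, a difference of -1.52 ± 0.28 (adjusted p = 0.00033). Its treated level was 12.73 to 12.99 in humanized and 12.88 to 13.18 in wild-type livers, and its control level 7.18 to 8.01 in humanized and 5.55 to 6.57 in wild-type livers. The treated ranges overlapped and the control ranges did not. For Cyp2c55 the same held: treated livers had 12.36 to 12.70 and 12.47 to 13.09, control livers 9.20 to 10.01 and 8.16 to 8.80, in each case with humanized mice first.

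For Cyp2c65 the treated levels were apart, at 8.51 to 9.18 in humanized and 9.76 to 10.17 in wild-type livers, and the difference of effects was -1.16 ± 0.23. Cyp2b13, a female-biased P450, reached 5.01 to 6.35 in treated humanized and 6.38 to 9.04 in treated wild-type livers (difference -2.36 ± 0.29). Nebl and Cnmd, which encodes chondromodulin, also differed, by -1.42 ± 0.30 and -1.15 ± 0.22. The mean of Cnmd was 8.42 in treated humanized and 8.44 in treated wild-type livers. In the controls it was 7.47 in humanized and 6.34 in wild-type livers. Without control 5017 the differences of Abcc4 (adjusted p = 0.054) and Nebl (adjusted p = 0.074) did not pass the test. For Mcm6 the effect was 1.12 in humanized and 0.51 in wild-type mice, and the difference of 0.60 ± 0.32 did not pass the test (adjusted p = 0.75). For Meg3 (-0.49 ± 0.23) and Sult3a1 (-0.69 ± 0.44) it did not pass either.

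**Figure D4:**
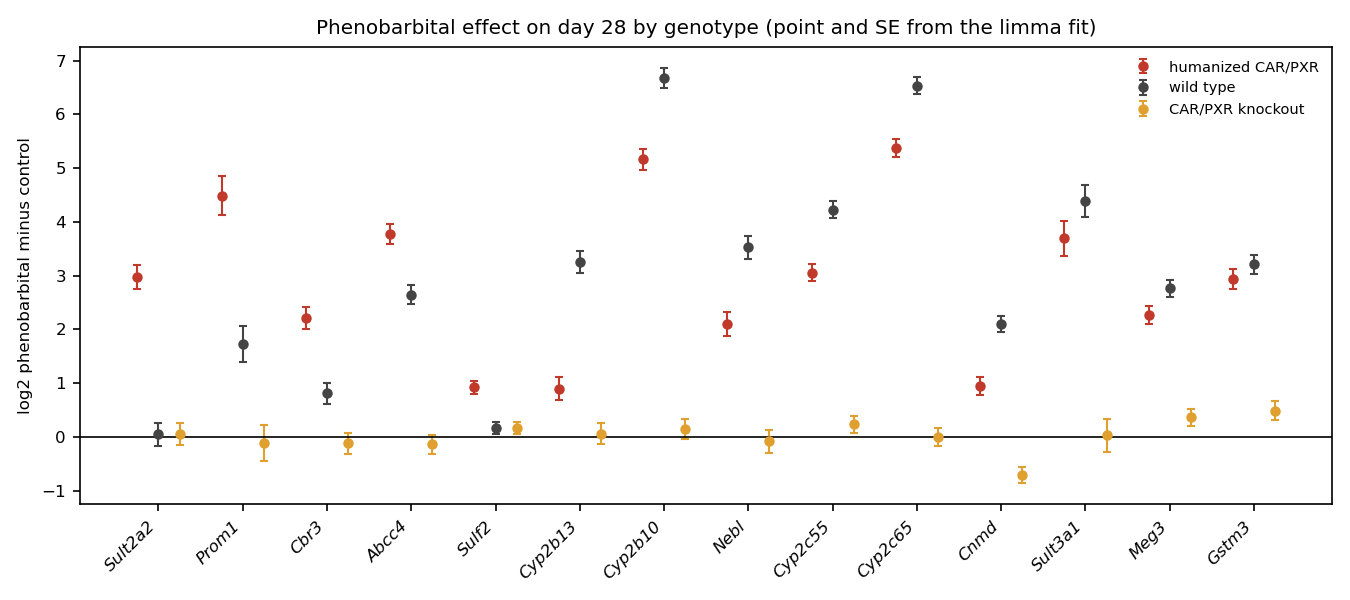
Points give the log2 phenobarbital effect on day 28 with its SE in humanized, wild-type and knockout mice, for 11 genes named by the humanized minus wild-type difference and for Sult3a1, Meg3 and Gstm3. Sult2a2 rises in humanized mice and lies near 0 in the other genotypes, and Cyp2b10 and Cyp2c65 rise most in wild-type mice.

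Knockout livers show what phenobarbital did without either receptor. In them 651 genes (5.16%) were called, and the effect differed from that in humanized mice for 260 (2.06%), 171 larger and 89 smaller in humanized mice. The treated knockout array 4019 was nearly identical to an array labelled day 91, 4024, and without both the count was 249. Without 6017 and 5017 it was 170, 128 larger and 42 smaller. Cyp2c65 was at 3.28 to 3.60 in treated and 3.24 to 3.80 in control knockout livers, and its effect was larger in humanized mice by 5.37 ± 0.23. Prom1 (by 4.60 ± 0.49), Abcc4 (by 3.91 ± 0.25), Sult3a1 (by 3.66 ± 0.44), Cyp2b10 (by 5.01 ± 0.28) and Sult2a2 (by 2.91 ± 0.31) were likewise induced in humanized but not called in knockout mice. Some other genes named above moved in the same direction in the knockout. Osgin1 had a mean of 10.17 in treated and 9.26 in control knockout livers, and Cpt1a of 10.44 and 10.95. In the same order, Csad was at 8.91 and 10.29, and Gadd45g at 6.92 and 9.46. These examples were picked after their values were seen.

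Among genes whose signed effect was lower in humanized mice were Enho, the precursor of adropin (difference -1.37 ± 0.40), Hes6, a transcriptional regulator (-1.26 ± 0.30), and the retinol dehydrogenase Rdh16f2 (-1.06 ± 0.24). Enho had means of 6.55 in treated and 7.32 in control humanized livers, against 7.57 and 6.97 in knockout livers. Rdh16f2 had 9.75 and 10.30, against 10.83 and 10.33. Hes6 was at 10.44 to 11.16 in treated and 9.32 to 10.47 in control knockout livers, against 9.17 to 9.81 in treated and 9.46 to 10.06 in control humanized livers. Pcp4l1, Teddm3 and Adh6-ps1 differed by -1.10 ± 0.27, -1.0 ± 0.27 and -0.95 ± 0.24. Their means in treated and control humanized livers were 6.02 and 6.95, 4.76 and 5.60, and 7.23 and 8.15. In the knockout they were 5.15 and 4.98, 4.90 and 4.73, and 7.89 and 7.87. Teddm3 in humanized mice was at 7.26 in control 5017 and at 4.86 to 5.34 in the other controls, and neither its fall nor this difference was called without 5017. Without that animal Enho (adjusted p = 0.099) and Pcp4l1 (adjusted p = 0.088) did not pass either, while Hes6 (0.013), Rdh16f2 (0.0024) and Adh6-ps1 (0.017) did.

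The time course asks which responses had reached their day 28 size on the first day. The effect on day 28 differed from that on day 1 for 157 genes (1.24%), 116 larger and 41 smaller; without 6017 and 5017 the numbers were 77, 69 and 8. Sult3a1 had an effect of 0.25 on day 1, 1.24 on day 7, 2.08 on day 14, 3.69 on day 28 and 2.99 on day 91. Sult2a2 followed with 0.11, 0.61, 1.74, 2.97 and 4.59 on those days, and Meg3 with -0.15, 0.65, 1.54, 2.27 and 2.60. The day 28 minus day 1 difference was 3.44 ± 0.44 for Sult3a1, 3.33 ± 0.49 for Prom1, 2.86 ± 0.31 for Sult2a2 and 2.42 ± 0.23 for Meg3, all called. Cyp2c65, Tafa2 and Cyp2b9 also gained, by 2.61, 2.55 and 2.54.

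Other induced genes had most of their effect on day 1. Cyp2b10 had an effect of 4.38 on day 1 and 5.16 on day 28 (difference 0.78 ± 0.28, adjusted p = 0.14), and Cyp2c55 of 2.71 and 3.06. Mcm6 had effects of 1.06, 1.49, 1.45, 1.12 and 0.53 on days 1, 7, 14, 28 and 91. Its treated mean was 7.37 on day 28 and 7.25 on day 91, and its control mean 6.26 and 6.72. The day 28 minus day 1 difference was negative for the clock output gene Dbp (-4.01 ± 0.94) and for Myc (-2.91 ± 0.71), Socs3 (-2.52 ± 0.70), Dmkn (-2.35 ± 0.67), Lce1d and Lce1c. In all of them the treated mean lay above the control mean on day 1 and below it on day 28. On day 1 the treated and control means were 8.72 and 5.99 for Dbp, 7.32 and 5.94 for Myc, and 7.40 and 6.94 for Socs3. On day 28 they were 6.01 and 7.29, 6.07 and 7.61, and 6.64 and 8.70. Dbp was at 10.34 in control 5017 and at 5.91 to 6.52 in the other controls of day 28. On day 1 treated animal 6005 was high in epidermal genes, with Dmkn at 8.57 against 3.90 to 4.20 in the other treated and 3.83 to 4.37 in the control animals. Without 5017, Myc kept its call in this difference (adjusted p = 0.015), and Dbp (0.13), Socs3 (0.14), Dmkn (0.55), Lce1d (0.42) and Lce1c (0.47) did not.

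The difference between the effects on day 28 and day 91 had an unadjusted p under 0.05 for 561 genes. It passed the adjusted test for Sult2a2 alone (0.00792% of genes tested). Its effect on day 28 was smaller by 1.62 (SE 0.31, adjusted p = 0.011), a call lost without any 1 of treated animals 6016 and 6019 of day 28 and 6021 and 6023 of day 91. On day 119, after 4 weeks without the drug, 3 treated and 5 control samples gave effects of 0.05 for Prom1, -0.13 for Abcc4, 0.03 for Sult2a2 and -0.03 for Meg3, none of them called. Gstm3 was lower in formerly treated mice by then (-0.92 ± 0.20, adjusted p = 0.025). Its mean was 10.27 in those mice and 11.19 in the controls of day 119. The humanized controls of the earlier days had lower means, 10.58 to 11.0. The differences from day 1 and from day 91 share the day 28 arrays and cannot be read as independent of each other.

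**Figure D5:**
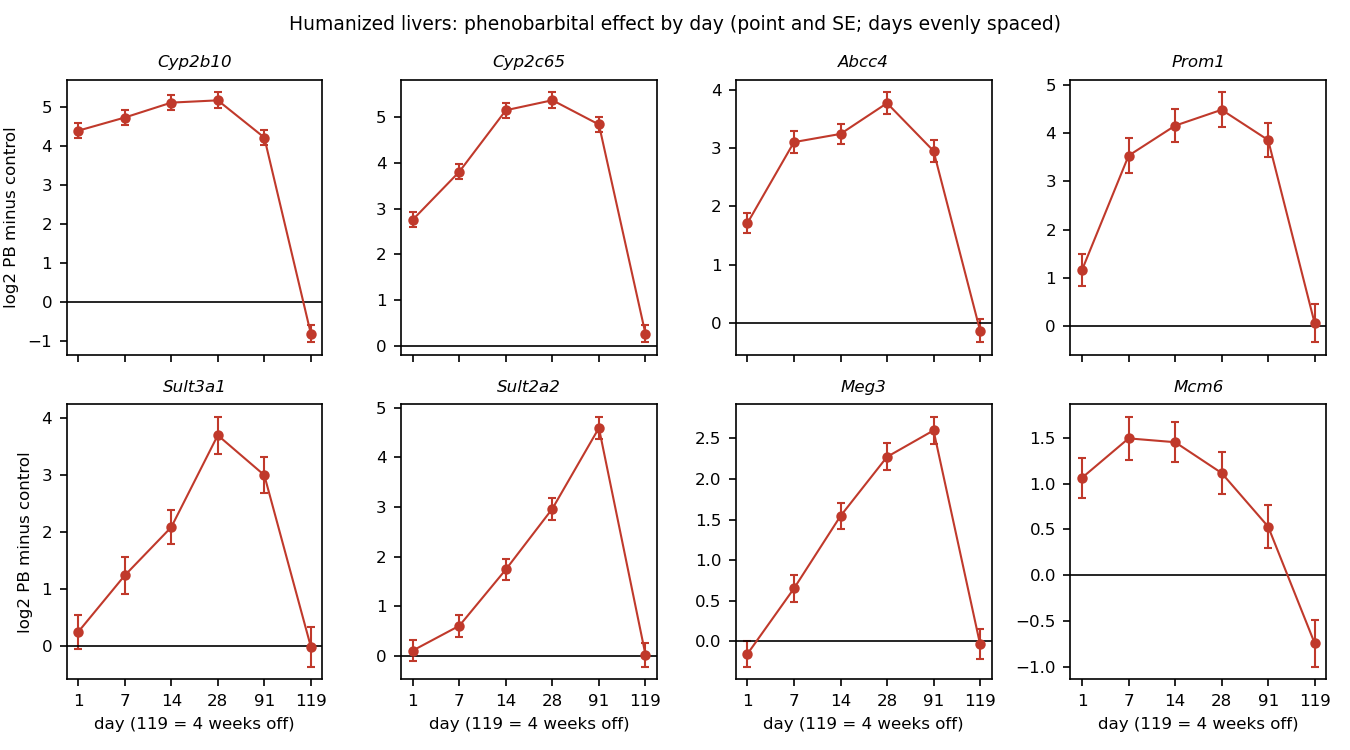
The phenobarbital effect in humanized livers, as a log2 difference with its SE, is plotted against the day of the study for 8 genes, with days 1 to 91 on the drug and day 119 after 4 weeks without it; days are evenly spaced. Cyp2b10 is near its highest effect from day 1, Sult3a1, Sult2a2 and Meg3 start near 0 and climb, and on day 119 Mcm6 and Cyp2b10 lie below 0 without passing the test.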

How the data were processed

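Liver RNA was measured on 1-colour Affymetrix mouse GeneChip arrays. RMA produced the deposited log2 values, per the submitters' processing notes; it subtracts background, equalises array distributions and combines the probes of a set. They run from 2.11 to 15.07. Genotype, treatment, day and animal came from the labels; the 0.05% rests on the treatment text, which also lists lower concentrations, and not on sample labels. Replicates are separate animals, whose number limits the precision. Of 45101 probe sets, 34958 had 1 gene symbol, 932 had several and 9211 none; the last 2 kinds were left out, so that Cyp2a5, Gsta1, Ugt1a1 and Akr1b7 are not analysed here. The probe set with the highest mean stood for a gene, and genes exceeding the array median on 3 or more arrays were tested.

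Tests used limma 3.58.1 under R 4.3.3 (moderated by eBayes, two-sided, Benjamini-Hochberg within a contrast) in 1 model of 36 group means over 166 samples, with 130 residual degrees of freedom; errors after ± are SE from this fit unless called SD. The arrays of 6026 and 6030 (treated humanized, day 119) were nearly identical and averaged; 4019 and 4024 carry different days and were kept. Called means an adjusted p under 0.05. No scan date or batch was used. The members, lists and rules were chosen with earlier results of these data known, and list counts are descriptions with no set test. Genes named were a fixed set of 36, the 15 largest rises and 10 largest falls without overlap, the 6 largest each way in each difference of effects, and up to 4 called members of each of 38 lists; predicted transcripts were passed over. The gene families, single markers and further called members given with values were chosen after their values were seen. Alternatives were a fit on the compared groups only, renewed quantile normalization, median centring, other filters on dim genes, every probe set, a trended robust prior, array weights and leaving out each animal. The script was checked on simulated data. Promoter sequences came from RefSeq.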

Additional observations from a re-analysis of the deposited data

Results flagged for a closer look

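Some animals lay far from the rest of their group, by Dixon's test at the 95% level, for 19 of 226 groups of named genes, where chance gives about 5%. Control 5017 accounted for 5 of these: Dmkn at 9.47, Lce1c at 7.80, Lce1d at 7.54, Dbp at 10.34 and Alas1 at 10.54. Control 5019 stood out for Abcc4 (6.46), Nr1i2 (3.98) and Cyp3a44 (6.09), and control 5018 for Rian (3.60) and Etnppl (11.06). Among treated animals, 6020 stood out for Foxa3 (8.88), Rdh16f2 (9.24), Mcm4 (6.85) and Cpt1a (10.56), 6018 for Cyp2u1 (6.86), Hand2 (6.05) and Dcn (11.01), and 6019 for Gadd45g (7.30) and Ier2 (7.76).

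A tested difference between the effects of groups singled out the following genes. Between humanized and wild-type mice the differences were 2.92 for Sult2a2, 2.76 for Prom1, 1.41 for Cbr3, 1.12 for Abcc4, 0.75 for Sulf2, -2.36 for Cyp2b13, -1.52 for Cyp2b10, -1.42 for Nebl, -1.17 for Cyp2c55, -1.16 for Cyp2c65 and -1.15 for Cnmd. Between humanized and knockout mice they were 5.37 for Cyp2c65, 5.01 for Cyp2b10, 4.60 for Prom1, 3.91 for Abcc4, 3.66 for Sult3a1, 2.91 for Sult2a2, -1.37 for Enho, -1.26 for Hes6, -1.10 for Pcp4l1, -1.06 for Rdh16f2, -1.0 for Teddm3 and -0.95 for Adh6-ps1. Between day 28 and day 1 they were 3.44 for Sult3a1, 3.33 for Prom1, 2.86 for Sult2a2, 2.61 for Cyp2c65, 2.55 for Tafa2, 2.54 for Cyp2b9, -4.01 for Dbp, -2.91 for Myc, -2.52 for Socs3, -2.35 for Dmkn, -2.18 for Lce1d and -2.11 for Lce1c. Between day 28 and day 91 the difference was -1.62 for Sult2a2. All 4 sets share the humanized day 28 arrays.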

How the results depend on the processing

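The count of genes called on day 28, 972, was 422 in a fit on the compared arrays only (373 of them shared) and 449 without treated 6017 and control 5017, an alternative chosen after seeing the data (432 shared). Leaving out 1 animal at a time gave 605 (without 5017) to 1091. The humanized minus wild-type count of 17 was 9 under the stricter filter on dim genes, and 15 to 22 with 1 animal left out. The humanized minus knockout count of 260 was 137 on the compared arrays, 437 with array weights, 170 without both animals and 189 to 312 with 1 left out. The day 28 minus day 1 count of 157 was 46 on the compared arrays, 77 without both, and 75 (without 5017) to 235 with 1 left out. The single day 91 difference was 0 on the compared arrays and under the stricter filter, and 0 to 1 with 1 animal left out. The cause of these shifts was not tested, beyond fewer samples. Of 50 named rises 41 were called under all 17 or 18 alternatives in which the gene was tested, and of 46 named falls 12. Genes with 17 were not tested under the stricter filter. The fit of every probe set is not among these alternatives. Other probe sets turned the sign for Etnppl (0.37), Ighm (-0.017) and Sulf2 (-0.018), and others of Socs2, Hand2, Dcn, Ogn, Lrat, Btg2, Cpt1a and Cyp2u1 were lower in treated livers without being called. No paired analysis was possible because animal numbers are not shared between groups. The 4 control animals limit the precision.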

Other observations

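Some gene groups not described above held single changes in humanized livers on day 28. Over all genes tested, 4.18% were higher and 3.53% lower, so that single calls in these lists do not mark a change of the list. Of 19 circadian clock genes, Npas2 and Per1 were called, 1 in each direction, and 0 without 6017 and 5017. Of 18 endoplasmic reticulum stress genes, Xbp1 and Herpud1 fell, and Xbp1 was also called without both animals. Of 14 periportal genes Etnppl fell, and of 13 interferon response genes Iigp1, and neither was called without 6017 and 5017 (adjusted p = 0.062 and 0.12). Of 19 gluconeogenesis and glycogen genes Fbp1 fell, also without both. The erythroid gene Alas2 and the hepatocyte gene Apoa1 were lower in treated livers with and without both animals.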
